A study of Mus musculus with 2 samples.

Results

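Cxcl12, a secreted chemokine, and its receptors Cxcr4 and Ackr3 were examined in Tie2Cre lineage cells that had been sorted from the hearts of mouse embryos at day 12.5. The members were taken by gene symbol, with Cxcr7 as an older name of Ackr3. Every probe set annotated to exactly 1 of these 3 genes was used, which gave 5 probe sets of the 34945 that named 1 gene, and 3 of the 18193 genes on the array. The 3 genes were chosen by the signals and log2 ratios of these same arrays, on which Cxcl12 was among the genes highest in the mutant, so their values are given as a description. The mutant array held cells of genotype Tie2Cre;Tbx20 loxP/-, with 1 floxed and 1 null allele of the T-box transcription factor gene Tbx20. The control array held cells of genotype Tie2Cre;Tbx20 +/loxP, with 1 working and 1 floxed allele. Both genotypes carry the Tie2Cre transgene, which recombines loxP sites in endothelial and endocardial cells, in the cushion mesenchyme that descends from them, and in blood cells. The null allele is present throughout the mutant embryo, outside the lineage too. The sort kept live cells that lacked CD41, CD45 and Ter119, which mark blood cells, and the sources used here do not say whether embryos were pooled. There was 1 array per genotype, so no difference has a replicate check, no test between genotypes was made, and genotype and preparation cannot be told apart.

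CXCL12 acts through a pair of receptors. CXCR4 is a Gi-coupled receptor that drives directed migration, whereas ACKR3 is an atypical receptor that recruits arrestins, does not signal through Gi, and removes CXCL12 from the extracellular space. In the mouse heart the ligand and CXCR4 are known for their part in the growth and remodelling of coronary vessels and in ventricular septation, and loss of Ackr3 is known for thickened semilunar valves.

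The sequence just upstream of each annotated transcription start is shown because Tbx20, the gene that the study deletes, encodes a DNA-binding factor. RefSeq windows of 250 bases on GRCm38.p6 matched all 3 genes, with 1 window each, and are written 5′ to 3′ on the strand of the gene. Capitals mark the letters GGGCGG or TATAA on either strand, which are the GC box and a TATA-like motif. The window of Cxcl12 is chr6:117168285-117168534 on the plus strand, that of Cxcr4 is chr1:128592300-128592549 on the minus strand, and that of Ackr3 is chr1:90203730-90203979 on the plus strand.
Cxcl12: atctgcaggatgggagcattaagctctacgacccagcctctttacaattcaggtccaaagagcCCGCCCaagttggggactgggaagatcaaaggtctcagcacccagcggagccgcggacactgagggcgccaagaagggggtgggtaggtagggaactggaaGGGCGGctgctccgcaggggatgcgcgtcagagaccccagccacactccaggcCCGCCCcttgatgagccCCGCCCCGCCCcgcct
Cxcr4: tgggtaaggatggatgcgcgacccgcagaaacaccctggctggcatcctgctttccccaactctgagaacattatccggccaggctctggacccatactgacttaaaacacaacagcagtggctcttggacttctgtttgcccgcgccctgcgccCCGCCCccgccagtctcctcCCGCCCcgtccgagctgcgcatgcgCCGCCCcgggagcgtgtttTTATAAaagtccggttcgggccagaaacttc
Ackr3: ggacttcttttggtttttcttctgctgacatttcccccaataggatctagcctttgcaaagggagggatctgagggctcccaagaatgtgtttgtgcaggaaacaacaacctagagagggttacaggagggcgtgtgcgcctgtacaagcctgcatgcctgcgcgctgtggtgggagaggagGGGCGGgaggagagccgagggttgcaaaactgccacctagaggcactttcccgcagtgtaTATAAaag
The Cxcl12 window held 5 GC boxes, the Cxcr4 window 3 and the Ackr3 window 1. A GC box was present in 32.7% of the 32851 windows of the table. The Cxcr4 window held overlapping TATA-like matches that begin 31 and 30 bases before the start, the Ackr3 window 1 such match at 8 bases, and the Cxcl12 window 0. That motif was in 22.8% of all windows. The T-box site AGGTGTGA, in 1.12% of all windows, and its shorter core GGTGTG, in 16.3%, were not in these letters of any of the 3 genes on either strand. Neither was the hypoxia response core ACGTG, which was in 16.6% of all windows, nor the E-box CANNTG, in 66.2%. The ETS core GGAAG, in 64.1% of windows, occurred at 2 places in the Cxcl12 window and at 0 in the other two. The G and C content was 64.4% for Cxcl12, 61.2% for Cxcr4 and 54.0% for Ackr3, against a median of 52.4% over all windows.

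The arrays gave 1 intensity per probe set, the linear MAS5 signal, which is scaled to give both arrays the same trimmed mean. A floor was set at the median of each array, 82.4 in the mutant and 91.3 in the control. A gene took its brightest probe set and counted as measured where that probe set was above the floor on both arrays, as for 10665 genes. The log2 ratio of mutant over control had a median of -0.01 and an SD of 0.38 over these genes. The 3 probe sets of Tbx20 read 4245 to 6416 in the mutant and 6128 to 7638 in the control, 60.2% to 85.9% of control. Which part of Tbx20 is floxed is not in the labels, and the probe sets may lie outside it. Endothelial genes were read on both arrays: all 10 endothelial markers were measured, with a summed signal of 60796 in the mutant and 58181 in the control. The pan-leukocyte gene Ptprc, which encodes CD45, was under the floor on both. Some genes of other cell types were bright too. The erythroid globin gene Hbb-y read 6606 in the mutant and 9843 in the control, and the myocardial gene Myl7 read 6753 in the mutant and 3811 in the control.

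Cxcl12 was higher in the mutant. Its brightest probe set, 1417574_at, read 696 in the mutant array and 184 in the control array, 3.77-fold higher, a log2 ratio of 1.92. The second probe set, 1448823_at, read 194 in the mutant and 115 in the control, 1.68-fold higher (0.75). The third, 1439084_at, was under the floor on both arrays, at 20.3 in the mutant and 53.7 in the control, and values under the floor have no order. Both measured probe sets were thus higher in the mutant, by unequal amounts, and the lower of them stood close to the floor in the control, at 1.26 times its value, against 2.02 times for the brightest. The target sequence of the brightest probe set is 1 of the 3 RefSeq transcripts of Cxcl12. Those of the other two were not found in the reference table, so which transcripts each probe set reads was not resolved here.

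**Figure D1:**
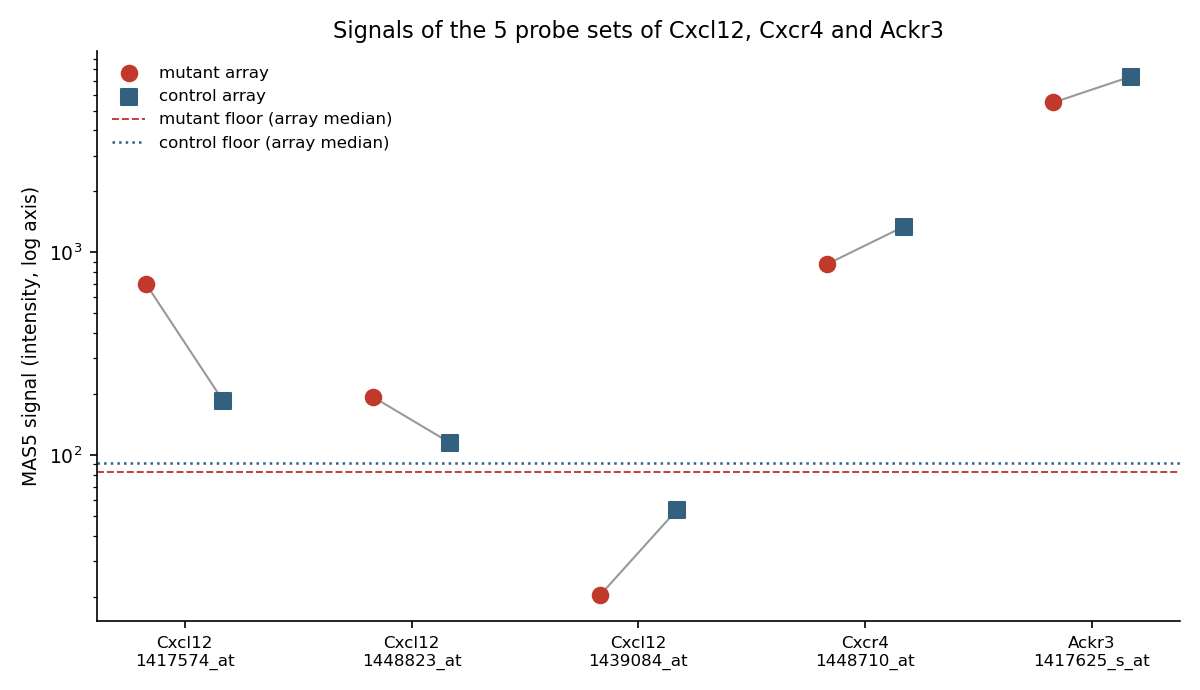
MAS5 signal (log axis) of each probe set of Cxcl12, Cxcr4 and Ackr3 on the mutant array (circles) and the control array (squares), 1 array each, with the floor of each array as a horizontal line. Both Cxcl12 probe sets above the floors are higher in the mutant, the third lies under the floors, and the Cxcr4 and Ackr3 probe sets are lower in the mutant.

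Of 10665 measured genes, 69 (0.647%) passed 2-fold on the higher side, and Cxcl12 was the 1 member among them. The same held for 44 of the 4969 genes (0.885%) with a mean signal of 200 to 1000, the brightness class of Cxcl12. Its ratio was the highest of the 10665, and it kept that rank under 6 of 8 alternatives of the processing. Among these 6, scaling to the median and centring on the endothelial markers shift all genes alike and cannot change a rank. With probe sets of unsuffixed names alone, Cxcl12 kept its own value. It ranked 11 with the floor at the 25th percentile, which admits dimmer genes, and 8 with the median of all measured probe sets of a gene, where its ratio was 1.33. With the floor at the 75th percentile Cxcl12 was no longer measured. Probe sets of 1 gene share the RNA of each array, so their spread covers probe error and not embryos. In the brightness class of Cxcl12, log2 ratios within a gene had an SD of 0.39 over 2264 genes with several measured probe sets. The gap of 1.16 between the Cxcl12 probe sets was wider than is usual there: the median gap between the 2 brightest probe sets was 0.35, and 3.14% of those genes had a gap at least as wide. Of 26 genes with several measured probe sets and the brightest at least 2-fold higher, 23, Cxcl12 among them, had the next one higher too, and 3 had it at 2-fold.

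Cxcr4, the signalling receptor, was lower in the mutant. Its 1 probe set, 1448710_at, read 873 in the mutant and 1340 in the control, 1.54-fold lower, a log2 ratio of -0.62. Both signals stood well clear of the floor, at 10.6 times its value in the mutant and 14.7 times in the control. At least 1.5-fold lower were 705 of the 10665 measured genes (6.61%), and at least 2-fold lower 156 (1.46%), which did not include Cxcr4. Of all measured genes 5.74% had a lower ratio than Cxcr4, and of the 4347 genes with a mean signal over 1000, 2.42%. With a single probe set there is no second reading of this gene, and the SD between probe sets in this brightness class was 0.31 over 2698 other genes.

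Ackr3, the scavenging receptor, was also lower, by less. Its 1 probe set, 1417625_s_at, read 5489 in the mutant and 7357 in the control, 1.34-fold lower, a log2 ratio of -0.42. Of all measured genes 12.4% had a lower ratio, and of those with a mean signal over 1000, 6.63%. The suffix of the probe set marks probes that can match more than 1 transcript. Ackr3 was bright on both arrays, above 97.2% of probe sets in the mutant and 98.1% in the control. The receptors therefore stood on the side opposite to the ligand, although both lay well inside the 2-fold lines. Across the scaling alternatives the log2 ratio of Cxcr4 ran between -0.70 and -0.61 and that of Ackr3 between -0.51 and -0.38, so neither changed direction.

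**Figure D2:**
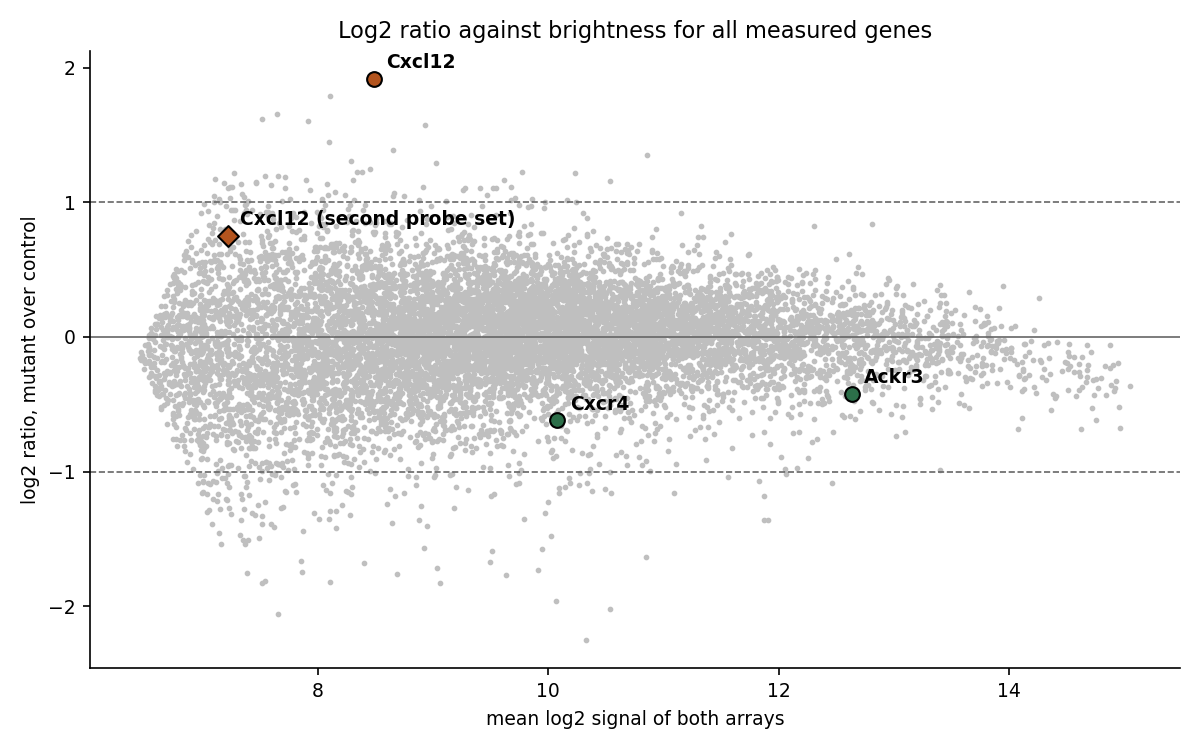
Log2 ratio of mutant over control against the mean log2 signal of both arrays for the 10665 measured genes (grey points, brightest probe set of each gene), with the members in colour, a diamond for the second Cxcl12 probe set, and dashed lines at 2-fold. Cxcl12 lies above all other genes at 1.92, its second probe set at 0.75 inside the 2-fold line, and Cxcr4 (-0.62) and Ackr3 (-0.42) toward the lower edge of genes as bright as they are.

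By likeness of signal on the 2 arrays, measured as the Euclidean distance between the pairs of log2 signals, no measured gene lay within 0.2 of Cxcl12 (0 genes). Cxcl12 had the highest ratio of all measured genes, so this is not a result separate from that ratio. The nearest were Cacna2d2, a calcium channel subunit, at 0.44, Brpf1, a chromatin reader, at 0.48, and Apela, a peptide that activates the apelin receptor, at 0.51. Cxcr4 had 58 genes and Ackr3 43 genes within the same distance, so many genes had much the same pair of signals. The nearest to Cxcr4 were Cd248, Adgrl1 and Ppp2r1b, at 0.03 to 0.05, and the nearest to Ackr3 were Ppp1cb, Ccn2 and Poldip3, at 0.02 to 0.03. A distance over 2 arrays is a weak measure of likeness.

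Other chemokine ligands stood on both sides of 0. Of 33 listed ligands on the array, 26 were under the floor on both arrays and 7 were measured, 3 higher and 4 lower (57.1% lower, against 50.96% of all measured genes). Their median log2 ratio was -0.20, against -0.01 over all genes, and it was -0.0061 with the floor at the 25th percentile. Cxcl1, a neutrophil attractant, read 800 in the mutant and 1697 in the control, 2.12-fold lower (-1.09), and was the 1 ligand at least 2-fold lower. All 3 measured Cxcl1 probe sets were lower, the least of them by -0.78. Ccl2, a monocyte attractant, read 818 in the mutant and 1376 in the control (-0.75). Cxcl16, made as a membrane-bound chemokine, read 554 in the mutant and 770 in the control (-0.48), and its second probe set was at -0.53. The platelet chemokine Pf4 read 295 in the mutant and 214 in the control (0.46). Ccl7 and Ccl25 were both at 0.25, Ccl27a was at -0.20, and Cxcl14 and Cx3cl1 were under the floor on both arrays. Cxcl12, chosen with its ratio on these same arrays known, was the single listed chemokine at least 2-fold higher.

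Of 20 other chemokine receptors on the array, 15 were under the floor on both arrays and 4 were measured, 2 higher and 2 lower, none at 2-fold (0 in either direction). Gpr182, an atypical receptor of endothelium that also binds CXCL12, read 2659 in the mutant and 1915 in the control (0.47). Ackr4, an atypical receptor that takes up CCL19 and CCL21, read 1411 in the mutant and 1208 in the control (0.22), and its second probe set was at -0.09. Ackr1 was at -0.10 and Ccrl2 at -0.43. The scavenging receptors thus differed in direction, with Ackr3 lower and Gpr182 higher. The fractalkine receptor gene Cx3cr1 was above the floor in the control array alone and at least 2.74-fold lower in the mutant.

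**Figure D3:**
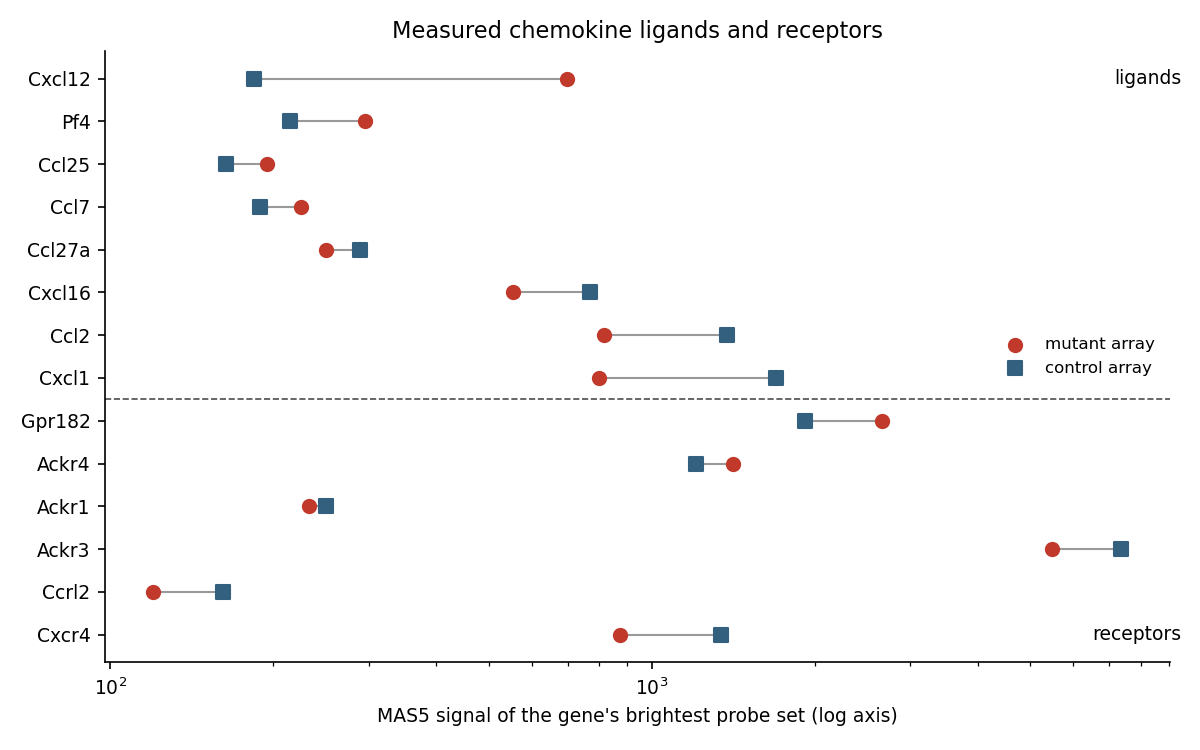
MAS5 signal (log axis) of the brightest probe set of each chemokine ligand (upper rows) and receptor (lower rows) measured on both arrays, mutant as circles and control as squares, ordered by log2 ratio. Within each gene the distance between the marks is the ratio; Cxcl12 has the widest, and positions are not comparable between genes.

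The genes that set how much CXCL12 is available had a median close to that of all genes. The widest ratios were among the alternative ligands of the receptors and the heparan sulfate genes. Of 25 listed genes 18 were measured, 6 higher and 12 lower (66.7% lower, against 50.96% of all measured genes). Their median log2 ratio was -0.04, against -0.01 over all genes, and none was at 2-fold. Adm encodes adrenomedullin, a peptide that ACKR3 also scavenges, and read 3260 in the mutant and 6401 in the control, 1.96-fold lower (-0.97). Its second probe set was at -0.46. Mif, a cytokine that can bind CXCR4 and ACKR3, read 11571 in the mutant and 10914 in the control (0.08). Penk, which encodes opioid peptides that ACKR3 takes up, was at -0.08, close to the floor. Dpp4, the protease that inactivates CXCL12 by clipping its amino end, read 1588 in the mutant and 1833 in the control (-0.21). CXCL12 is held on heparan sulfate, and there the core protein gene Gpc1 was at -0.60, the sulfotransferase genes Hs6st1 and Hs6st2 at 0.56 and -0.57, and the perlecan gene Hspg2 at -0.19. The metalloproteinases Mmp2 (0.01) and Mmp14 (-0.29), which cleave CXCL12, were bright on both arrays.

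Downstream of the receptors, 25 of 35 listed genes, 30 of them on the array, were measured, 15 higher and 10 lower. Higher were thus 60.0%, against 49.0% of all measured genes, and the median log2 ratio was 0.14, against -0.01. The Gi subunit gene Gnai2 read 9629 in the mutant and 8816 in the control (0.13), and the beta subunit gene Gnb1 was at -0.10. The small GTPase genes Rac1 and Cdc42 were at 0.11 and -0.12. The arrestin genes Arrb1 and Arrb2, named for their role at ACKR3 and not by size, were at 0.27 and 0.33. At 2-fold was 1 of the 25 measured genes, where 0.647% of all measured genes were at least 2-fold higher and 1.46% lower. This was Pik3cg, a phosphoinositide 3-kinase acting after Gi-coupled receptors. It read 239 in the mutant and 109 in the control, 2.19-fold higher (1.13), from a control signal close to the floor. Lower were Gng2 at -0.45, Rgs16, an inhibitor of Gi signalling, at -0.40 with a second probe set at -0.91, and Stat3 at -0.38. Apart from Pik3cg, the brightest probe sets of the measured genes of this list lay between -0.45 and 0.34. Their other measured probe sets reached further, down to -0.91 for Rgs16 and up to 0.71 for Rgs3. Factors and signals of hypoxic and developing vessels had 11 of 20 higher and a median of 0.06. Vegfa, which attracts endothelial cells and is induced by hypoxia, read 417 in the mutant and 772 in the control (-0.89). Tgfb1 was at 0.63, the Notch ligand gene Dll4 at 0.62 and the bright forkhead gene Foxc1 at 0.19.

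Markers of other cell types also differed between the arrays. Of all measured genes 49.0% were higher and 50.96% lower, with a median of -0.01. The counts of every marker list here and in the next paragraphs stand beside these values. In sorted bulk cells, more or fewer cells of a type and more or less RNA per cell cannot be told apart. Beside Cxcl12, which epicardial and perivascular cells are known to express, all 10 measured epicardial markers of 12 listed were higher in the mutant, with a median log2 ratio of 0.74 and a range of 0.27 to 1.35. The summed signal of all 12 was 10146 in the mutant and 5965 in the control, and none was listed at 0 (0 of 12). Upk3b, a mesothelial marker, read 2961 in the mutant and 1163 in the control. Lrrn4 was at 1.22 and the retinoic acid enzyme gene Aldh1a2 at 0.98. The epicardial factor gene Wt1 was at 0.42, and Msln was under the floor on both arrays. The log2 ratio of the brightest Cxcl12 probe set lay above that range and that of the second inside it. The range is of brightest probe sets: the second ones of Upk3b and Gpm6a were at 1.60 and -0.12. It also leaves out Upk1b, whose brightest probe set was above the floor in the mutant alone, at least 2.95-fold higher there. The dimmer Upk1b probe sets were at 0.64 and 0.18. The part of epicardial cells in the Cxcl12 value was not tested. Smooth muscle and pericyte markers, with 9 of 10 measured, had 6 lower, 3 higher and a median of -0.16. They went both ways: the pericyte channel genes Abcc9 and Kcnj8 were at -1.27 and -0.85, Cspg4 at -0.93 and Pdgfrb at -0.35. The pericyte marker Rgs5 was at 0.26, from signals of 143 in the mutant and 119 in the control. Those lie near the floor, as does the mutant signal of Cspg4, 136. Notch3 was at 0.58, with a second probe set at -0.38, and Tagln was at -0.03. The summed signal of all 10 was 11206 in the mutant and 13062 in the control.

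Beside the receptors, the endothelial markers had 7 of 10 higher and a median of 0.08, with Cdh5 at 0.01 and Cldn5 at -0.70. Coronary endothelium is a known site of Cxcr4. Of its 7 other listed markers 6 were measured, 4 of them lower, with a median of -0.56 and a summed signal over all 7 of 4444 in the mutant and 6058 in the control. They went both ways: Fabp4 read 898 in the mutant and 1983 in the control (-1.14), Aplnr was at -0.88 and the arterial connexin gene Gja5 at -0.87, while Car4 was at 0.97. With probe sets of unsuffixed names alone that median was 0.19. Endocardial markers had 6 of 10 higher and a median of 0.07, with Npr3 at 0.25 and Bmp6 at -1.67. Cushion mesenchyme markers had 11 of 12 lower and a median of -0.51, among them Meox1 at -1.96 and Snai2 at -0.89, with a summed signal of 49438 in the mutant and 65033 in the control. For Gapdh, whose 3′ and 5′ probe sets bear on RNA quality, 3′ signal divided by 5′ signal was 1.64 in the mutant and 2.27 in the control. The part of coronary cells, mesenchyme and RNA quality in the receptor values was not tested.

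**Figure D4:**
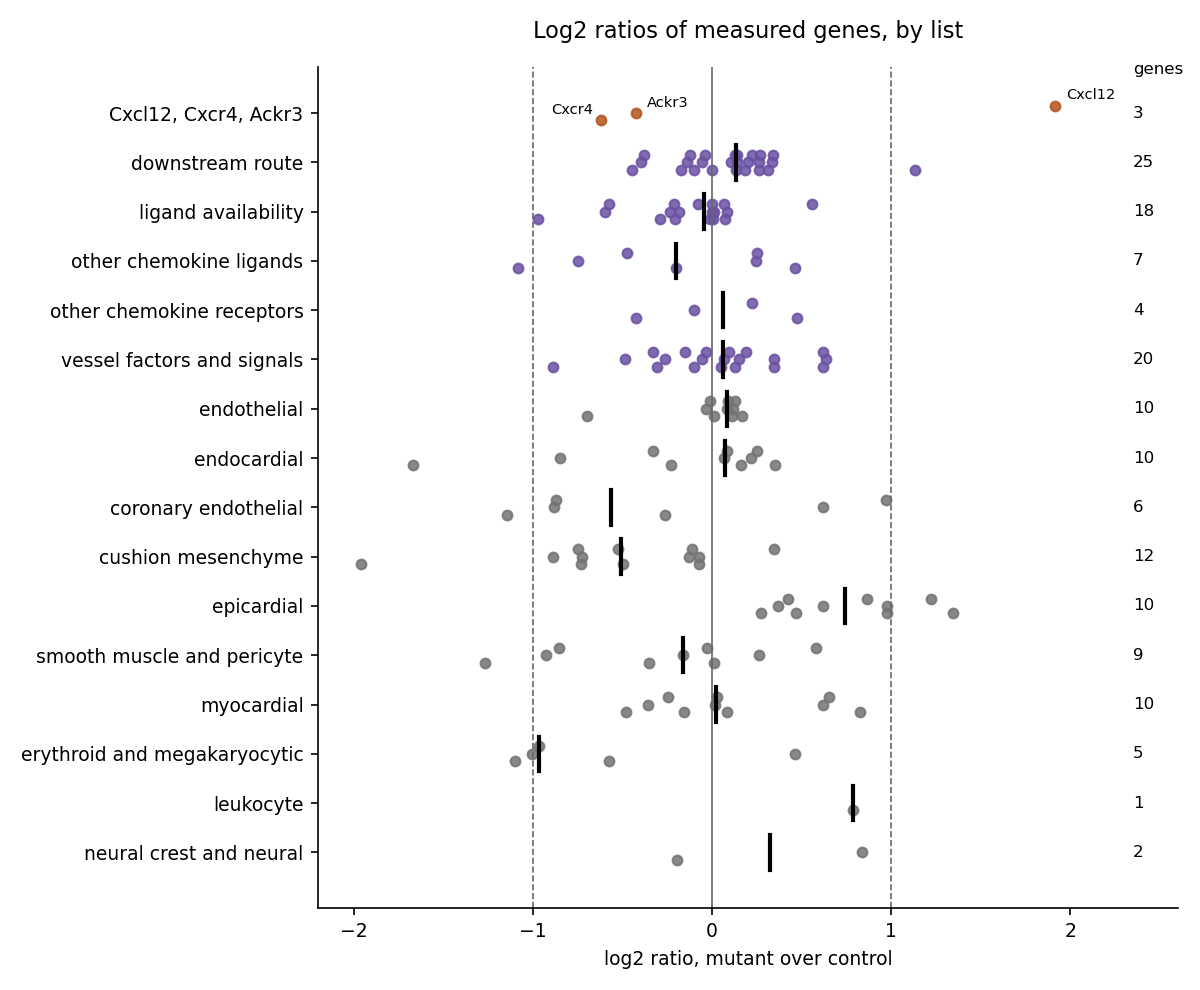
Log2 ratio of mutant over control for the members (top row) and for the measured genes of each list (purple for chemokine route genes and vessel factors, grey for cell type markers); black bars are list medians, dashed lines 2-fold, and numbers at the right the genes measured. Cxcl12 lies beyond every other gene shown on the higher side, and the epicardial row is the one marker row of 10 genes that lies wholly above 0.

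Myocardial markers, another source of RNA in dissociated hearts, had a median of 0.02 over 10 measured genes, with 6 higher and 4 lower. Their summed signal was 24686 in the mutant and 22679 in the control. They went both ways: Myl7 was at 0.83, Tnni3 at 0.65 and Actc1 at 0.62, while Nppa was at -0.48 and Tnni1 at -0.36. Erythroid and megakaryocytic genes had 4 of 5 measured genes lower, a median of -0.97 and a summed signal, over the 9 on the array, of 7843 in the mutant and 11777 in the control. Leukocyte genes had 1 of 10 measured, Cd68 at 0.79, while Csf1r and Cx3cr1 were above the floor in the control alone, at least 1.74-fold and at least 2.74-fold lower in the mutant. The summed signal of all 10 was 482 in the mutant and 626 in the control. Neural crest and neural genes had 2 of 6 on the array measured, with Ednrb at 0.84 and Tubb3 at -0.20. Sox10, a neural crest factor, was above the floor in the control alone and at least 1.66-fold lower in the mutant.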

How the data were processed

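RNA of sorted Tie2Cre lineage cells was hybridised to Affymetrix arrays, 1 per genotype. The authors deposited a linear intensity for each probe set, and per the submitters' processing notes MAS5 was used. The version, the settings and the build were not found in the labels or the file. MAS5 subtracts mismatch probes, which makes ratios of dim probe sets noisy. The number of arrays limits the precision.

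Of 45101 probe sets, 64 array controls were left out, as were 932 that named several genes and 9160 not listed in the platform annotation. Of the annotated symbols with a matching identifier in the reference table, 0 differed from it. Signals were put on the log2 scale after setting values under each array's median to that floor. Each gene was represented by its brightest probe set (mean log2 signal of both arrays). The members and the gene lists were chosen with earlier results of these data known. Named genes were all members, list genes past 2-fold, and up to 4 per list by absolute ratio and by signal, of which some are printed. Others are Arrb1, Arrb2, Penk, Dpp4, Hspg2, Cxcl14, Cx3cl1, Ccl7, Ccl25, Cx3cr1, Csf1r, Sox10, Wt1, Upk1b, Msln, Rgs5 and Ptprc, named for their role or to complete a list. The alternatives were 3 scalings, 2 other floors, a pseudocount, 2 other choices of probe set, folds of 1.5 and 3, and list means. Centring on the endothelial markers was added after seeing the data. Python 3.11.15, numpy 2.4.6, pandas 2.3.3 and scipy 1.17.1 were used, and the steps were tested on simulated data.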

Additional observations from a re-analysis of the deposited data

How the results depend on the processing

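The direction of all 3 members was the same under every alternative that gave a value: 8 for Cxcl12, 9 for Cxcr4 and 8 for Ackr3. Part of this was fixed by construction. The other floors and the median over 1 probe set returned the main value for Cxcr4 and Ackr3. Unsuffixed probe sets returned it for Cxcr4 and Cxcl12, and the floor at the 25th percentile for Cxcl12. Cxcl12 was at 1.498 with a pseudocount of each array's median and at 1.33 with the median over its probe sets, and otherwise between 1.83 and 1.94. It gave no value with the floor at the 75th percentile, and Ackr3 none with unsuffixed probe sets.

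The counts of genes at least 2-fold higher and lower, 69 and 156, were 233 and 537 with the floor at the 25th percentile, 12 and 34 at the 75th, and 14 and 68 with the pseudocount. At folds of 1.5 and 3 they were 466 and 705, and 5 and 19. Lower genes made up 69.3% of the calls, against 61.5% after quantile normalization, 62.2% after loess, 82.9% with the pseudocount and 83.2% after centring on the endothelial markers, where 43 genes were higher and 213 lower. That centring, chosen after seeing the data, moved the median of all genes to -0.09.

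List medians moved by more than their standard error over members in the cases below. The SD between probe sets of a gene (0.35) took its place for 2 lists. These were leukocyte genes, with 1 measured member, and neural crest and neural genes, with 2. With the floor at the 25th percentile the other chemokine receptors were at -0.25 and leukocyte genes at -0.41. With the floor at the 75th, other chemokine ligands were at -0.75, other receptors at 0.35, epicardial genes at 0.47 and erythroid genes at -0.58. With the pseudocount, epicardial genes were at 0.52, erythroid genes at -0.68 and leukocyte genes at 0.40. With the median over probe sets, the availability genes were at -0.12, vessel factors at -0.035, endocardial genes at -0.14 and epicardial genes at 0.47. With unsuffixed probe sets, the availability genes were at -0.14, other receptors at 0.35, coronary genes at 0.19, epicardial genes at 0.54 and smooth muscle genes at -0.37. After centring on the endothelial markers the downstream genes were at 0.051, the availability genes at -0.13 and the endothelial genes at 0 by construction. As means, the availability genes were at -0.14, endothelial genes at -0.0047, endocardial genes at -0.20 and erythroid genes at -0.64. By construction, the floors and the unsuffixed choice change which genes enter, the centring changes where 0 lies, and the pseudocount draws dim ratios toward 0. For the other alternatives the cause was not tested. No paired analysis was possible because each genotype has 1 array. Signals near the floor, such as the second Cxcl12 probe set, limit what the ratio of a dim gene can show.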
